A study of Mus musculus with 36 samples.

Results

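The genes that encode matrix proteoglycans were followed through a course of hypoxic pulmonary hypertension in mouse lung. The members were Dcn (decorin), Prelp, Lum (lumican), Bgn (biglycan), Fmod (fibromodulin), Ogn (osteoglycin), Vcan (versican), Hspg2 (perlecan), Sdc1 and Sdc4 (syndecan-1 and syndecan-4), and a gene counted as measured where a spot on the array carried its symbol and no other. This gave 8 of the 10 genes on 10 of 15388 spots. Dcn and Sdc1 had 2 spots each and the other 6 measured genes 1 spot each, and Fmod and Ogn were not analysed here. One further spot, listed under both Utp3 and Sdc4, was left out of the averages. Among the measured genes, Dcn, Hspg2 and Sdc1 had a value on all 36 arrays and Vcan, the least complete, on 32.

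Proteoglycans are proteins that carry long sugar chains, the glycosaminoglycans. Decorin, biglycan, lumican and PRELP are small leucine-rich proteoglycans or close relatives. Decorin and lumican sit on collagen fibrils and shape how thick and how regular they grow, decorin and biglycan can also hold the growth factor TGF-beta, and PRELP is thought to anchor basement membranes to the collagen beneath them. Versican is a large proteoglycan that binds hyaluronan and fills the loose matrix of vessel walls and airways, perlecan is a heparan sulfate proteoglycan of basement membranes, and the syndecans are heparan sulfate proteoglycans that span the membrane of the cell. In the lung these molecules lie around vessels, airways and alveolar walls, where the matrix is rebuilt when pulmonary arteries thicken.

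The sex and age of the BALB/c mice are not given in the sources used here. Hypoxic mice were kept at 0.5 atm for 1, 3, 7, 14 or 21 days (days 1 to 21, the hypoxia phase), or for 21 days and then for 1, 3, 7 or 14 days after return (days 22, 24, 28 and 35, the recovery phase). The lungs of 5 hypoxic mice and of 5 control mice matched in time were pooled separately, and both pools were hybridised to the same spotted 2-colour cDNA array. Each of the 9 days had 4 arrays, so that 20 arrays covered the hypoxia phase and 16 the recovery phase. The labels describe a single pair of pools per day, so the 4 arrays of a day are not shown to be separate mice and p-values between arrays measure only the spread between these arrays, which may be technical.

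All values are log2 ratios of hypoxic over matched control lung. Each unit is a factor of 2, and 0 is no difference. Values above 0 are read as more RNA in the hypoxic lung. This direction is likely rather than settled: the protocol names the hypoxic group and Cy5 first and the control group and Cy3 second, and no dye swap is recorded. A ratio gives no level, so the genes cannot be ranked by abundance, and in whole lung fewer cells of a type and less RNA per cell cannot be told apart. For the phases the day was the unit: the 4 arrays of a day were averaged and limma was fitted to the 9 day means, with Benjamini-Hochberg adjustment over 12159 features and a threshold of 0.05. Single days were tested with limma on the 36 arrays. The number of arrays limits the precision of every value.

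Between 14186 and 15042 spots had a value on an array, and array medians lay between -0.02 and 0.05. Recovery day 28 replicate 1 had the widest spread of ratios (SD 0.525, against 0.169 to 0.481 on the other 35 arrays). On that day 6 of the 8 genes lay farthest from 0 on that array, so day 28 values are given with and without it. Arrays numbered 1 and 2 deviated together from their day means, as did those numbered 3 and 4 (median correlation across days 0.39 for the other number of the same 2 and -0.39 between the subsets). Deviations from a day mean cancel within the day, so the negative value follows largely from the positive one. Several results are also given for each subset of arrays.

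Dcn was lower in hypoxic lung on all 20 arrays of the hypoxia phase. Its mean over the 5 hypoxia days was -0.84 ± 0.27 (SD of day means, n = 5), a level 0.561 times that of matched controls (limma, adjusted p = 0.00015). Of the 12159 features tested, 51 had a lower mean over this phase. The decrease was present from the first day. On day 1 the 4 arrays read -0.90, -0.67, -1.16 and -1.11, on day 3 they read -0.78, -0.81, -1.35 and -0.92, and on day 7 they read -1.16, -1.12, -1.56 and -0.75. Every one of these 12 values was well below 0, and the arrays of the 3 days overlapped with each other. The means were -0.96 ± 0.22 on day 1, -0.96 ± 0.27 on day 3 and -1.15 ± 0.33 on day 7 (SD, n = 4), each past the threshold (limma, adjusted p = 1.9e-05, 1.4e-05 and 2.8e-07).

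On the later days of hypoxia the Dcn day means lay nearer to 0. The arrays read -0.26, -0.71, -0.58 and -0.63 on day 14, and -0.22, -0.42, -0.82 and -0.77 on day 21. Both days were called lower, with means of -0.54 ± 0.20 (limma, adjusted p = 0.006) and -0.56 ± 0.29 (adjusted p = 0.022). Against day 1, the day 21 ratio was 0.40 higher (95% interval -0.02 to 0.83), which did not pass (limma, adjusted p = 0.61), and the arrays of the 2 days overlapped. In replicates 1 and 2 alone neither day passed (adjusted p = 0.062 for day 14 and 0.29 for day 21). The day 14 call was also lost without replicate 2 (adjusted p = 0.070) and the day 21 call without replicate 2, 3 or 4 (adjusted p = 0.099, 0.14 and 0.23), whereas the phase mean passed in both subsets, at -0.70 in replicates 1 and 2 and -0.97 in replicates 3 and 4.

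After return from low pressure the Dcn day means lay between -0.62 and -0.15. The arrays read -0.38, -0.19, -0.27 and -0.62 on day 22 and -0.12, -0.22, -0.14 and -0.10 on day 24, and neither mean passed (-0.36 ± 0.19 and -0.15 ± 0.05, limma adjusted p = 0.34 and 0.67). Day 24 was the day on which the arrays lay closest to 0 and to each other. On day 28 the arrays read -1.52, -0.54, -0.11 and -0.30, and the mean of -0.62 ± 0.63 was called lower (adjusted p = 0.0014). That call rested on replicate 1: without it the mean was -0.32 (adjusted p = 0.10), and in replicates 3 and 4 alone it was -0.20 (adjusted p = 0.34). By day 35 the mean was -0.31 ± 0.27, with 1 of 4 arrays above 0 (0.08), and it did not pass (adjusted p = 0.44). That value, on replicate 1, and the -0.11 of day 28 replicate 3 came from the second Dcn spot alone, as the first had none. The first spot had a mean of -0.57 on the 3 arrays of day 35 that held it. It was below 0 on all 14 of its recovery arrays, and the second spot on 12 of 16. Fitted on its own, the second spot did not pass on day 28 (-0.20, limma adjusted p = 0.12). With arrays scaled to a common spread, days 22 and 35 passed for Dcn (both -0.45, adjusted p = 0.033 and 0.016). Over the 4 recovery days the mean was -0.36 ± 0.20 (SD, n = 4), lower on 15 of 16 arrays, at 0.055 just outside the threshold on the adjusted p, and it passed in 8 of 23 other settings. The hypoxia mean was 0.47 lower than the recovery mean (SE 0.13), a difference that did not pass either (limma, adjusted p = 0.14).

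The 2 Dcn spots moved in the same direction by different amounts. The first spot had a hypoxia mean of -1.07 ± 0.37 and the second of -0.60 ± 0.18 (SD of 5 day means), and both passed when fitted on their own (limma, adjusted p = 0.00031 and 0.00016, with 42.9% of 14649 spots called). On 30 of the 34 arrays that held both, the first spot was the lower one, and across those arrays their ratios correlated with Pearson r = 0.68, a description of 2 spots that share each array. On day 7 the first spot read -1.68, -1.60, -2.13 and -0.85, while the second had a mean of -0.74 ± 0.18 (SD, n = 4). The lowest Dcn value of the series, -2.54, was the first spot on day 28 replicate 1, where the second spot read -0.51. In recovery the first spot had a mean of -0.66 (adjusted p = 0.041, 6.12% called) and the second was at -0.18 (adjusted p = 0.13), so the spots fell on opposite sides of the threshold there.

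Prelp was also lower over hypoxia, with day means that ranged more widely. The mean of the 5 hypoxia days was -0.69 ± 0.42 (SD, n = 5), which is 0.620 times the control level (limma, adjusted p = 0.0025), and 18 of 19 arrays were below 0. In the order of phase means 97 of 12159 features lay lower. Replicates 1 and 2 gave -0.53 (adjusted p = 0.024) and replicates 3 and 4 gave -0.87, so both subsets passed.

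The lowest Prelp day means were those of days 1 and 14. The arrays read -1.16, -0.91, -1.25 and -1.31 on day 1, a mean of -1.15 ± 0.18 (limma, adjusted p = 1.4e-07). On day 3 they read -0.27, 0.18, -0.34 and -0.51, and the mean of -0.24 ± 0.29 did not pass (adjusted p = 0.21). Replicates 3 and 4 alone were called lower on that day (-0.42, adjusted p = 0.0089), and replicates 1 and 2 were not (-0.05, adjusted p = 0.87). No array of day 3 reached as low as any array of day 1, and the rise from day 1 to day 3 was 0.92 (95% interval 0.54 to 1.29, limma adjusted p = 0.0055), in a contrast where 1.18% of 12076 features were called. It did not pass in replicates 1 and 2 alone (0.99, adjusted p = 0.074) or without replicate 3 (0.92, adjusted p = 0.099).

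Prelp was called lower again on days 7 and 14. On day 7 the 3 arrays with a value read -0.56, -0.66 and -0.80, and on day 14 the 4 arrays read -0.51, -1.17, -1.30 and -1.31. Both means passed, at -0.67 ± 0.12 (limma, adjusted p = 0.00074) and -1.07 ± 0.38 (adjusted p = 2.7e-07). On day 21 the arrays read -0.06, -0.14, -0.34 and -0.72, all below 0 yet with a mean of -0.32 ± 0.30 that did not pass (adjusted p = 0.20). Here too replicates 3 and 4 alone passed (-0.53, adjusted p = 0.0095) and replicates 1 and 2 did not (-0.10, adjusted p = 0.78). All 4 lay above all 4 arrays of day 1, and day 21 was 0.84 higher than day 1 (95% interval 0.46 to 1.21, adjusted p = 0.015, in a contrast with 0.979% of features called). This call was lost in replicates 1 and 2 alone (adjusted p = 0.34) and without replicate 1 or 3 (adjusted p = 0.10 and 0.30).

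In recovery Prelp was called lower on days 24 and 28. On day 22 it had 3 values, 0.20, -0.15 and -0.53, with a mean that did not pass (-0.16 ± 0.36, limma adjusted p = 0.92). It was lower on day 24, where the 4 arrays read -0.67, -0.77, -0.65 and -0.62 and hardly differed among themselves. Day 28 was lower still, with -1.42, -0.54, -0.79 and -1.14. The means of days 24 and 28 passed, at -0.68 ± 0.06 (limma, adjusted p = 0.0025) and -0.97 ± 0.39 (adjusted p = 2.1e-06). Without day 28 replicate 1 the day 28 mean was -0.82 and still passed (adjusted p = 0.0002), while day 24 was lost in replicates 1 and 2 alone (adjusted p = 0.076) and without replicate 3 (adjusted p = 0.079). On day 35 the arrays lay between -0.44 and -0.20 and the mean of -0.30 ± 0.10 did not pass (adjusted p = 0.34), though it did with arrays scaled to a common spread (-0.44, adjusted p = 0.015). Over the recovery days the mean was -0.53 ± 0.37, lower on 14 of 15 arrays, with an adjusted p of 0.064 that missed the threshold, and 36 of 12159 features had a lower recovery mean. The hypoxia and recovery means differed by -0.16 (95% interval -0.62 to 0.29, adjusted p = 0.72). This interval includes 0 and also a deficit in hypoxia that is 0.62 deeper.

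**Figure D1:**
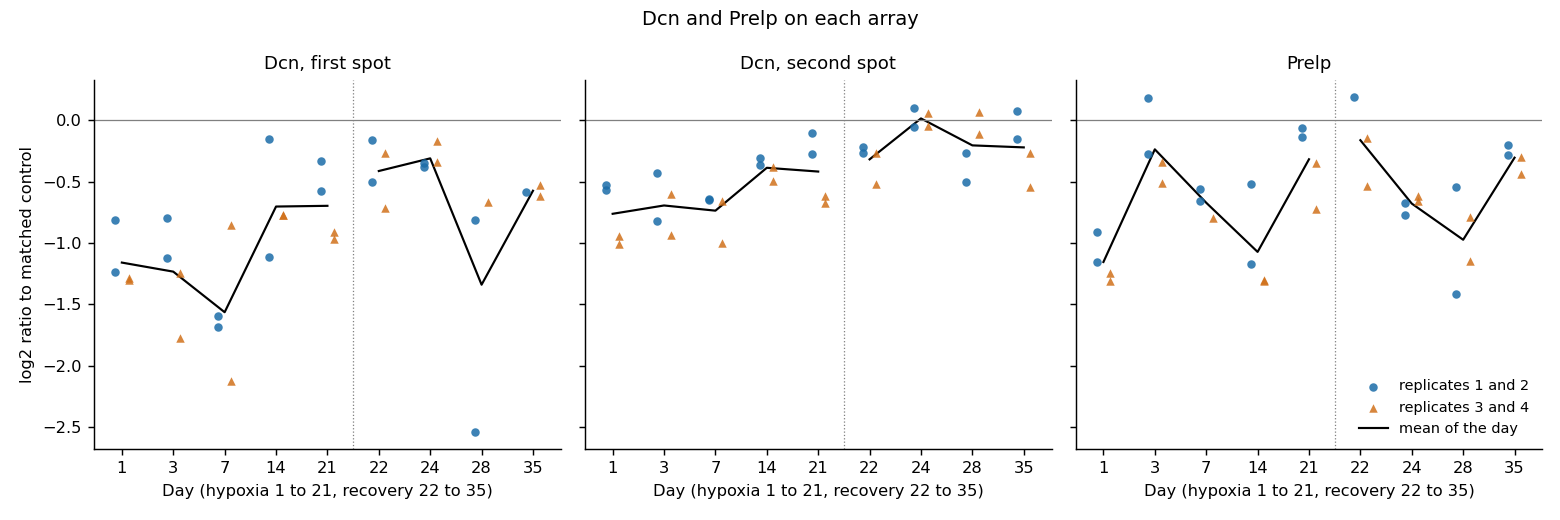
Log2 ratio of hypoxic over matched control lung (vertical axis) by day of the study (horizontal axis, 9 days spaced evenly) for the 2 Dcn spots and the Prelp spot. Points are arrays, with replicates 1 and 2 and replicates 3 and 4 marked apart, lines join day means and a dotted line separates hypoxia from recovery. The first Dcn spot reaches a day mean of -1.56 on day 7 and the second -0.76 on day 1, and Prelp has its lowest day means on days 1, 14 and 28.

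Lum, the gene for lumican and the neighbour of Dcn in the genome, was called higher on 3 of the 4 recovery days. Its hypoxia mean was -0.01 ± 0.15 (SD, n = 5, 95% interval -0.17 to 0.15, limma adjusted p = 0.92), with 10 arrays below and 9 above 0. Lum was higher on day 14, where the arrays read 0.15, 0.02, 0.39 and 0.38 (mean 0.24 ± 0.18, adjusted p = 0.013), a call that was lost in replicates 1 and 2 alone (0.09, adjusted p = 0.55) and without replicate 3 or 4 (adjusted p = 0.14 and 0.13). On days 24, 28 and 35 all 12 arrays were above 0, from 0.15 to 0.51, and the means of 0.33 ± 0.11, 0.33 ± 0.14 and 0.43 ± 0.08 each passed (adjusted p = 0.0085, 0.00049 and 0.00012). The day 24 call was lost in both subsets (adjusted p = 0.16 and 0.071) and without replicate 1 or 3 (adjusted p = 0.059 and 0.17), and the day 35 call in replicates 1 and 2 alone (adjusted p = 0.087). Day 22 stood apart from these days, with arrays of -0.12, -0.23, -0.06 and -0.04 that lay below every array of the 3 later days. For day 35 the arrays read 0.41, 0.33, 0.51 and 0.48 against -0.25, 0.05, 0.04 and 0.17 on day 21, with no overlap. That rise of 0.43 (95% interval 0.22 to 0.63) passed (limma, adjusted p = 0.021, 1.07% of features called), and it did not pass without replicate 1, 3 or 4 (adjusted p = 0.46, 0.20 and 0.12) or in either subset. Over all 4 recovery days Lum had a mean of 0.24 ± 0.24, which did not pass (adjusted p = 0.086).

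Bgn, whose protein is a close relative of decorin, moved in both directions in the first days. It read -0.36, -0.23, -0.33 and -0.53 on day 1 and 0.44, 0.56, 0.06 and 0.31 on day 3, so every array of day 1 was below 0 and every array of day 3 above it. Neither day passed (limma, adjusted p = 0.091 and 0.10), nor did the difference of 0.71 between them (95% interval 0.27 to 1.14, adjusted p = 0.12). Without day 28 replicate 1, which enters the shared estimate of spread, all 3 passed (adjusted p = 0.030, 0.036 and 0.028). In replicates 3 and 4 alone day 1 (-0.43, adjusted p = 0.0058), day 14 (0.41, adjusted p = 0.0056) and the difference of day 3 from day 1 (0.62, adjusted p = 0.042) passed. With arrays scaled, days 1 and 24 passed (-0.38 and -0.39, adjusted p = 0.021 and 0.025). On day 28 the arrays read -1.65, -0.58, -0.36 and -0.50, and the mean of -0.77 ± 0.59 was called lower (adjusted p = 0.0002). Without replicate 1 it was -0.48 (adjusted p = 0.015). By day 35 the arrays were within -0.05 and 0.08. The hypoxia mean of Bgn was 0.06 (95% interval -0.18 to 0.29, adjusted p = 0.71), an interval that leaves out a decrease of the size seen in Dcn, and the recovery mean was -0.27 ± 0.36 (adjusted p = 0.16).

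Vcan was lower on day 14, when the arrays read -0.49, -0.90, -0.57 and -0.16. The mean was -0.53 ± 0.31 (limma, adjusted p = 0.0015). Its other hypoxia days had means between -0.15 and 0.03, none past the threshold, and day 21, with values on 2 arrays, was not tested. On day 28 Vcan read -0.49, -0.60, -0.05 and -0.22 and was called lower (-0.34 ± 0.25, adjusted p = 0.030), a call lost without that day's replicate 1 (-0.29, adjusted p = 0.16) and without replicate number 1, 2 or 4 at all days (adjusted p = 0.21, 0.13 and 0.064), and in replicates 3 and 4 alone (-0.13, adjusted p = 0.37). The arrays of Vcan spread by subset on day 35: replicates 1 and 2 read -0.47 and -0.55 while replicates 3 and 4 read 0.07 and -0.08. The subset means also lay apart on day 22 (-0.29 for replicates 1 and 2, 0.20 for replicates 3 and 4). On day 24 they did not (-0.10 and -0.08). Day 21, which enters the hypoxia mean, had values on replicates 3 and 4 only. The hypoxia mean was -0.15 ± 0.22 (95% interval -0.31 to 0.003, adjusted p = 0.10) and the recovery mean -0.18 ± 0.14 (adjusted p = 0.16).

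Hspg2, the perlecan gene, stayed within -0.15 and 0.65 on all hypoxia arrays, with a mean of 0.09 ± 0.11 (95% interval -0.04 to 0.22, limma adjusted p = 0.24). With all arrays, the single day past the threshold was day 28, where the arrays read 0.99, 0.47, 0.09 and 0.26. That mean of 0.45 ± 0.39 (adjusted p = 0.0006) was 0.27 without replicate 1 of the day (adjusted p = 0.044). In replicates 3 and 4 alone the day 28 mean was 0.18 (adjusted p = 0.25), and without replicate number 1 at all days the adjusted p was 0.081. Day 21 passed in replicates 3 and 4 alone (0.36, adjusted p = 0.038) and day 24 with arrays scaled (0.32, adjusted p = 0.011). Recovery values were above 0 on 14 of 16 arrays, with a mean of 0.21 ± 0.19 (adjusted p = 0.073), which passed in replicates 1 and 2 alone (0.35, adjusted p = 0.038) and not in replicates 3 and 4 (0.08, adjusted p = 0.43).

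The syndecans gave 1 small increase that held for 1 of 2 spots. Sdc1 was above 0 on 18 of 20 hypoxia arrays, with a gene mean of 0.14 ± 0.09 (SD, n = 5, limma adjusted p = 0.018), which is 1.10 times the control level. The second spot, at 0.27 ± 0.11, passed by itself (adjusted p = 0.0011), and the first, at 0.02 ± 0.10, did not (adjusted p = 0.86). The ratios of the 2 spots had a correlation of -0.05 over 35 arrays, so they did not vary together as the Dcn spots did. On day 28 they read in opposite directions, -0.43 ± 0.32 for the first and 0.28 ± 0.12 for the second, and each passed when fitted on its own (adjusted p = 0.00021 and 0.0072). Which spot reports Sdc1 was not tested. The phase call was also lost without day 3, day 7 or day 14 (adjusted p = 0.053, 0.065 and 0.064) and in replicates 3 and 4 alone (0.12, adjusted p = 0.051). On single days the gene mean passed on days 3, 7 and 14, at 0.16 ± 0.07, 0.21 ± 0.02 and 0.22 ± 0.11 (adjusted p = 0.049, 0.0063 and 0.0058), and on no recovery day. The day 3 call was lost without any 1 replicate number (adjusted p = 0.081 to 0.22), and the calls of days 7 and 14 without replicate 3 (adjusted p = 0.053 and 0.052) and in replicates 1 and 2 alone (adjusted p = 0.12 and 0.074). With all arrays scaled to a common spread, none of the 3 days passed for Sdc1 (adjusted p = 0.20, 0.15 and 0.079).

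Sdc4 was lower on days 14 and 28. On day 14 the arrays read -0.12, -0.64, -0.73 and -0.78 (mean -0.57 ± 0.31, limma adjusted p = 0.0055), and on day 28 they read -1.48, -0.30, -0.50 and -0.53 (mean -0.70 ± 0.53, adjusted p = 0.00056). The day 14 call was lost in replicates 1 and 2 alone (-0.38, adjusted p = 0.21) and without replicate 3 (adjusted p = 0.061). Replicate 1 was the least negative array of day 14 and the most negative of day 28. Without replicate 1 the day 28 mean was -0.44 (adjusted p = 0.035). On the other 7 days nothing passed with all arrays, day 1 passed in replicates 3 and 4 alone (-0.34, adjusted p = 0.026), and on day 7 the 3 arrays spanned -0.42 to 0.61. The hypoxia mean of -0.21 ± 0.27 (95% interval -0.45 to 0.03) did not pass (adjusted p = 0.14). Here the subsets gave different calls: replicates 1 and 2 gave -0.05 (adjusted p = 0.82) and replicates 3 and 4 gave -0.47 (adjusted p = 0.00075), and without replicate 1 at all days the mean was -0.34 (adjusted p = 0.0066). The spot listed under both Utp3 and Sdc4 had a hypoxia mean of -0.10 ± 0.11 (adjusted p = 0.11) and a recovery mean of -0.09 ± 0.12 (adjusted p = 0.27).

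**Figure D2:**
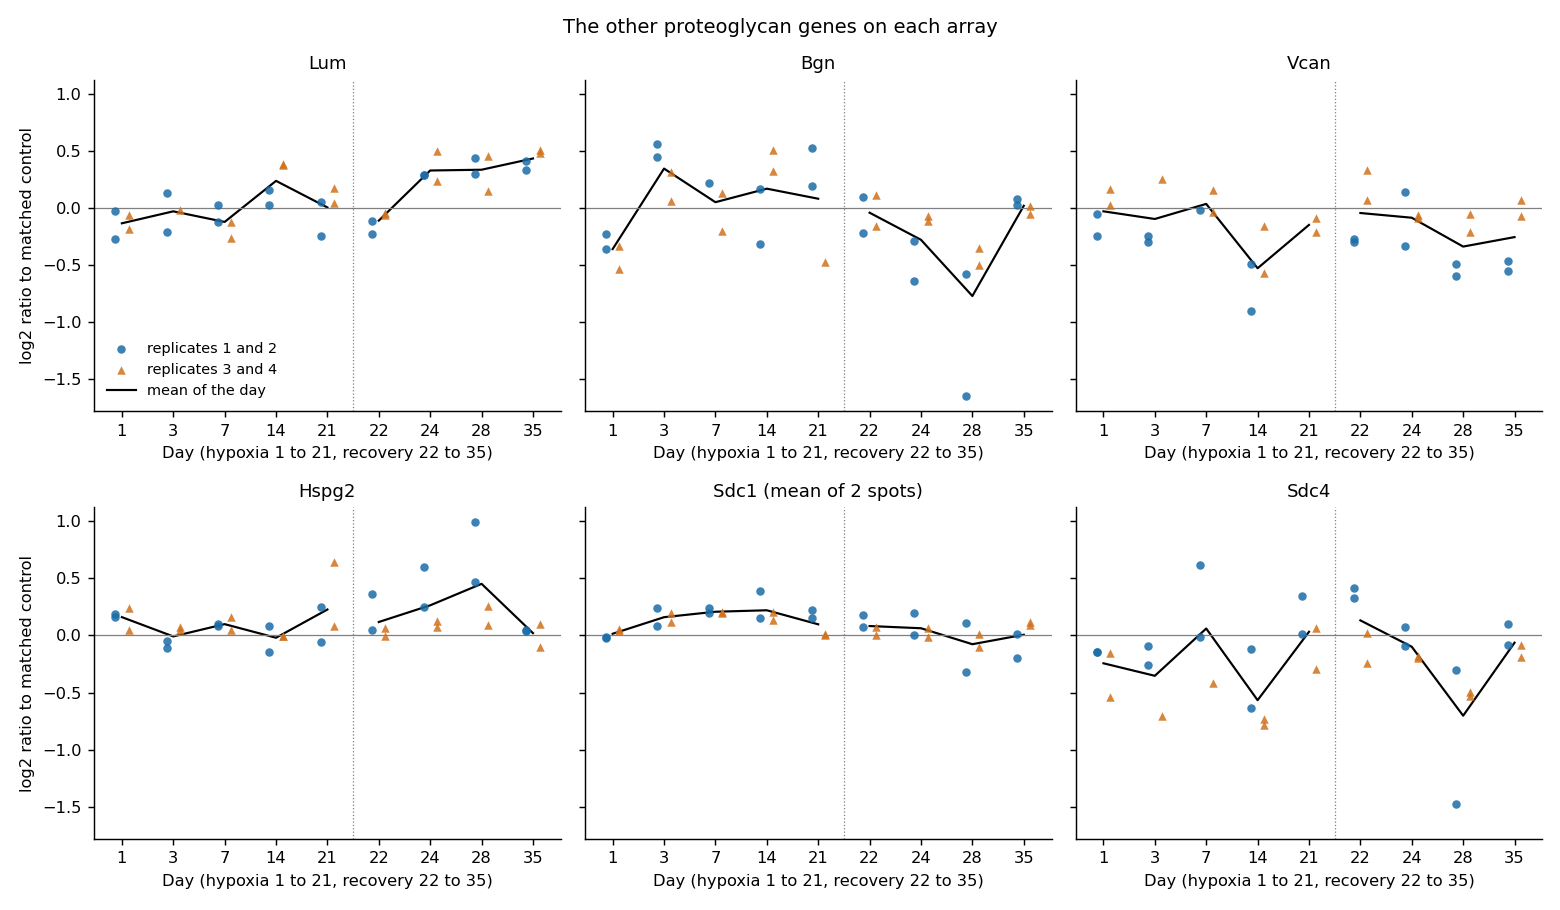
Log2 ratio of hypoxic over matched control lung (vertical axes) by day (horizontal axes) for Lum, Bgn, Vcan, Hspg2, Sdc1 (mean of its 2 spots) and Sdc4. Points are arrays, lines join day means and a dotted line separates hypoxia from recovery. Lum lies above 0 on all 12 arrays of days 24, 28 and 35, and on day 28 a single array, replicate 1, sits far from the other 3 for Bgn, Hspg2 and Sdc4.

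Counted by gene, 2 of 8 members were called lower over the hypoxia phase (Dcn and Prelp), 1 higher (Sdc1) and 5 neither. Of all 12159 features 17.7% were called lower, 24.7% higher and 42.4% in either direction, so 3 of 8 is close to the share of features in general. Across the 8 genes the median of the hypoxia means was -0.08, against 0.03 for all features. What set Dcn and Prelp apart within the group was size, since the other 6 genes had hypoxia means between -0.21 and 0.14. In the recovery phase 0 of 8 members were called by limma, against 4.77% of features, and 6 of 8 had an unadjusted p under 0.05 (Dcn, Prelp, Lum, Bgn, Vcan and Hspg2), as did 29.9% of all features. The median of the recovery means was -0.18 for the members and 0.02 for all features. In the difference between the phases limma called 0 of 8 members and 0.0329% of features, and 2 of 8 members (Dcn and Lum) had an unadjusted p under 0.05, as did 15.2% of all features.

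**Figure D3:**
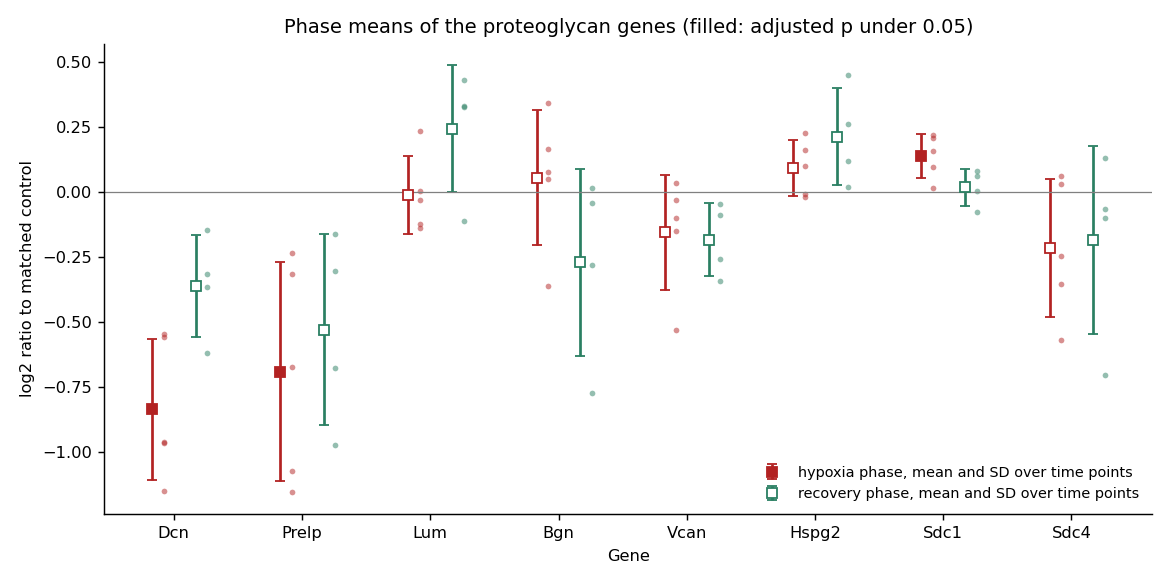
Mean log2 ratio of hypoxic over matched control lung (vertical axis) over the hypoxia and recovery phases for each of the 8 genes (horizontal axis). Squares are phase means, filled where limma called them, bars are the SD over the 5 or 4 days and small points are day means. Dcn at -0.84 and Prelp at -0.69 lie below the other 6 genes in hypoxia, and no recovery mean is filled.

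By day, the members called were few at first and most numerous on days 14 and 28. On day 1, 2 of 8 were lower (Dcn and Prelp) and none higher, where 9.08% of all features were lower and 10.6% higher. Day 3 gave Dcn lower and Sdc1 higher (10% of features lower and 13.3% higher). Day 7 gave Dcn and Prelp lower and Sdc1 higher (15.5% lower and 20.5% higher). On day 14, 4 of 8 were lower (Dcn, Prelp, Vcan and Sdc4) and 2 higher (Lum and Sdc1), where 12.3% of features were lower and 15.6% higher. Day 21 had Dcn lower, 1 of 7 tested (2.33% lower and 2.24% higher). Dcn was the only member called at all 5 hypoxia days, and Prelp was called at 3 of them. With arrays scaled to a common spread, the calls of Sdc1 on days 3, 7 and 14 were lost (limma, adjusted p = 0.20, 0.15 and 0.079). So were those of Lum on day 14 (adjusted p = 0.12) and Vcan on day 28 (adjusted p = 0.087). Under that scaling Bgn on day 1, Dcn on day 22, Bgn and Hspg2 on day 24, and Dcn and Prelp on day 35 passed as well.

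In recovery day 22 had no member past the threshold in limma (0.76% of features lower and 0.809% higher), with 1 of 8 at an unadjusted p under 0.05, beside 9.83% of all features. Day 24 had Prelp lower and Lum higher (2.14% lower and 0.79% higher). On day 28, where 13.6% of features were lower and 18.6% higher, 5 of 8 were lower (Dcn, Prelp, Bgn, Vcan and Sdc4) and 2 higher (Lum and Hspg2). Without replicate 1 of that day the calls of Dcn and Vcan were lost and those of Prelp, Bgn, Sdc4, Lum and Hspg2 held. Day 35 had Lum higher as its single call (1.37% lower and 1.82% higher), to which scaling added Dcn and Prelp lower. Between day 21 and day 22, the first day after return, limma called none of 7 members (0.611% of features), and none of the 7 had an unadjusted p under 0.05, beside 5.27% of all features. For Dcn that change was 0.19 (95% interval -0.23 to 0.62).

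Within the group the 9 day means of Dcn and Prelp had a Pearson r of 0.24, given as a description of days that share their arrays between the 2 genes. With 9 points such an r is imprecise. The pairs of members ranged from -0.87 (Bgn and Hspg2) to 0.81 (Bgn and Sdc1). Among 6546 named genes, those whose 9 day means followed Dcn most closely were Gabarapl2 (r = 0.96), Irf1 (0.95), Gatd3a (0.94), Dazap2 (0.94) and Itfg1 (0.94). Plp2 and Tubb3 ran most nearly opposite to it (r = -0.96 and -0.95). The genes named here for Dcn and Prelp are the extremes of 6546 correlations over 9 days. Values of this size follow in part from that picking, and a link to Dcn or Prelp was not tested. The likeness was in shape and not in size, since the hypoxia means of the 5 most alike genes were between -0.32 and -0.19. For Prelp the nearest were Pisd (r = 0.94), Cops7a, Ak7, Inpp5k and Crybg3 (each 0.92), and the most opposite were Pogk (-0.93) and Pls1 (-0.90). Of these, Inpp5k came closest to Prelp in size, with -0.55 in hypoxia and -0.48 in recovery.

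Other genes of the pathway did not share a single direction. Of 9 measured genes for other proteoglycan core proteins, 3 were higher and 3 lower over hypoxia, with a median of 0.01 (42.4% of all features called in either direction). The lowest was Tgfbr3 (betaglycan, a membrane proteoglycan that presents TGF-beta to its receptors), at -1.39 ± 0.29 in hypoxia (limma, adjusted p = 8.9e-05) and -0.80 ± 0.41 in recovery (adjusted p = 0.032), and its mean lay below that of Dcn in both phases. Sdc2, another syndecan, was lower at -0.25. Higher were Spock2 (testican-2) at 0.53, Col18a1 (a collagen that carries heparan sulfate) at 0.42 and Agrn (agrin) at 0.21. All 3 higher genes are named here, but not all 3 lower ones.

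The enzymes that build glycosaminoglycans were split as well. Of 23 measured, 8 were higher and 5 lower in hypoxia, with a median of 0.06. Of all features 24.7% were called higher and 17.7% lower in this phase. Chst12, a chondroitin sulfotransferase, was at 0.41, Ext2, a heparan sulfate polymerase, at 0.39 and Ugdh, which makes the UDP-glucuronate that chondroitin and heparan chains are built from, at 0.33. Chst11, another chondroitin sulfotransferase, was at -0.31. In recovery only Ext2 of this list passed (0.29 ± 0.11, adjusted p = 0.034), with 4.77% of all features called in either direction. Among 16 genes of breakdown, 5 were higher and 6 lower with a median of 0.00, beside the same shares of all features in hypoxia. The hyaluronan-degrading factor Cemip stood at 0.58, the protease Mmp2 at 0.49 and Adamts1, which cuts versican, at 0.47. Arsb, a lysosomal sulfatase, stood at -0.39. In recovery Cemip2 (-0.60) and Hyal2 (-0.38) of this list were lower, again beside 4.77% of all features called in either direction.

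Col1a1, Col1a2 and Col3a1, which encode the collagens of the fibrils that decorin and lumican bind, were higher in the hypoxia phase, and Col5a2, a minor collagen of such fibrils, was lower. Among 12 measured ligands, receptors and partners of the small leucine-rich proteoglycans, 5 were higher and 2 lower, with a median of 0.16. The shares of all features were 24.7% higher and 17.7% lower. Col3a1 was at 0.71 ± 0.39, Col1a1 at 0.64 ± 0.43, Col1a2 at 0.57 ± 0.35 and Tgfb2, a TGF-beta ligand, at 0.42 ± 0.15, each past the threshold in limma. Col5a2 was at -0.39. In recovery limma called none of the 12, against 4.77% of all features. At an unadjusted p under 0.05 there were 4 of them, beside 29.9% of all features.

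The markers of lung cell types were read as ratios beside these results. Over the hypoxia phase 24.7% of all features were called higher and 17.7% lower. Of 8 fibroblast markers 4 were higher in hypoxia (Mfap4, Col3a1, Col1a1 and Col1a2) and 1 lower (Pdgfra), with a median of 0.36 and a range of -0.22 to 1.24. Col3a1, Col1a1 and Col1a2 are the same genes as in the list of partners above. Of 4 macrophage and monocyte markers 3 were lower, with a median of -0.30, and of 5 erythroid markers 4 were higher, with a median of 0.67. For the remaining types few markers were measured: 1 of 2 for smooth muscle and pericyte, 1 of 4 for mesothelium and 2 of 3 for endothelium were higher, and 1 of 3 endothelial markers (Ednrb) was lower. Neutrophil markers gave 1 higher and 1 lower of 3, epithelial markers 2 and 2 of 5, and the single lymphocyte marker, Ighm, was at 0.08 and did not pass. In recovery 0 of 8 fibroblast markers were called by limma, against 4.77% of all features. At an unadjusted p under 0.05 there were 2, again beside 29.9% of all features. The part of any shift in cell types in the Dcn and Prelp ratios was not tested.

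**Figure D4:**
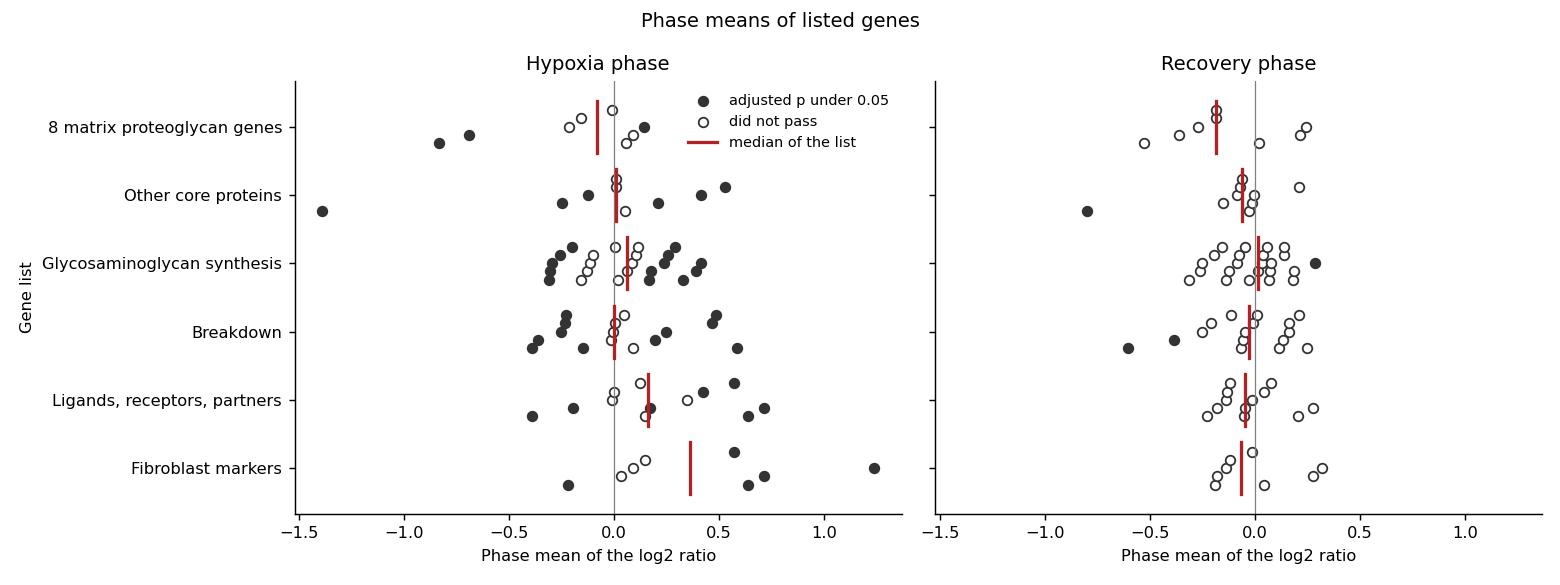
Mean log2 ratio of hypoxic over matched control lung (horizontal axes) over the hypoxia phase and the recovery phase for each measured gene of the matrix proteoglycans, of the 4 pathway lists and of the fibroblast markers (vertical axis). Each point is a gene, filled where limma called it, and a bar marks the median of each list. In hypoxia the medians of other core proteins, synthesis and breakdown lie between 0.00 and 0.06, that of fibroblast markers at 0.36, and the filled points of Dcn and Prelp lie at the low end of their list.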

How the data were processed

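Per the labels' protocols, slides were read on a GenePix 4000A scanner with GenePix Pro 4.0, and the authors deposited log2 ratios of median intensities after background correction, removal of poor spots and lowess normalisation. Those values were used as they stand, so signal over background was not used here. Of 15388 spots, 9598 had 1 symbol in the platform annotation, and the spots of each gene were averaged per array, which left 12761 features. Tests used limma 3.58.1 in R 4.3.3, in either direction. Phases were fitted on 9 day means for features with at least 2 arrays at each day, and single days and differences between days on 36 arrays with at least 3 of 4 per day. The fits were tested on simulated data with independent arrays, which lack the shared deviations of the subsets, so that dependence was not covered. Members, gene lists and tests were chosen with earlier results of these data known. All members were named. The rule also named the 5 genes most like Dcn or Prelp over the days and the 2 least alike, leaving out placeholder symbols, and up to 4 genes of each list that passed, by size. Agrn, Cemip2, Hyal2, Col5a2 and Pdgfra were added after their values were seen. Neighbouring genes were taken from the RefSeq gene table. Alternatives changed centring, scaling, spot averaging, missing values, replicates and days, and used the day or the replicate number as a block.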

Additional observations from a re-analysis of the deposited data

Results flagged for a closer look

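A single array stood far from the other 3 of its day for Sdc4 on day 1: replicate 4 read -0.54, while the others lay between -0.15 and -0.14. This was 1 of 62 sets of 4 arrays examined over genes and days, and chance gives about 1 in 20.

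Differences between days of the same gene drew attention where limma called them. Prelp was 0.92 higher on day 3 than on day 1 (adjusted p = 0.0055) and 0.84 higher on day 21 than on day 1 (adjusted p = 0.015), and Lum was 0.43 higher on day 35 than on day 21 (adjusted p = 0.021).

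Further pairs of days had every array of one day on one side of 0 and every array of the other day on the opposite side. These differences were not tested. They were picked because they separate, and how often other features separate in this way is not given here. Lum was below 0 on all arrays of days 1 and 22. Against day 1 it was higher by 0.37 on day 14, 0.46 on day 24, 0.47 on day 28 and 0.57 on day 35. Day 22 differed from day 14 by -0.35, and days 24, 28 and 35 were above day 22 by 0.44, 0.45 and 0.54. Bgn was above 0 on all arrays of day 3 and below 0 on all arrays of days 24 and 28, with differences of -0.62 and -1.12. On day 28 the lowest Bgn value, -1.65, was on replicate 1, the array with the widest spread.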

How the results depend on the processing

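Dcn over hypoxia passed in all 23 alternatives run on the gene mean (-0.97 to -0.70) and Prelp in all 22 (-0.87 to -0.53). The cause of the changes below was not tested.

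The number of members called over recovery was 0 of 8, beside 580 of 12159 features. It became 5 with arrays scaled to a common spread (3198 features) and 4 with the day as a random block (2475 features). It was 2 in replicates 3 and 4 (1609 features) and 1 in replicates 1 and 2 (1103 features). With each spot on its own it was 1 (897 of 14649 spots). It was also 1 with a value on every array, without day 7, without day 35 and with spots averaged over arrays first. Feature counts for these last settings are not given here. The member count was 0 to 1 when a replicate number was left out (386 to 725 features). Dcn in recovery then passed at -0.41 scaled, -0.31 in replicates 3 and 4, -0.36 with a value on every array, as a random block or without day 7, -0.42 with spots averaged first and -0.66 for its first spot. It was -0.39 to -0.29 with a replicate number or day 28 replicate 1 left out, and passed without replicate 1 (-0.32). Prelp in recovery passed at -0.64 scaled, -0.58 in replicates 3 and 4, -0.55 with the random block and -0.60 without replicate 2 (-0.60 to -0.46 with 1 number left out). For the difference of phases the random block called 2 members, Dcn among them at -0.47, beside 800 features. Member calls at single days, 24, became 12 in replicates 1 and 2 and 16 to 20 with a replicate number left out, and those between days, 3, became 0 in replicates 1 and 2 and 0 to 3 with one left out. Feature counts beside these member calls are not given here. Sdc1 on day 28 was -0.08 as a gene mean and 0.28 for its second spot.

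Replicate numbers did not pair the arrays beyond their subset. The median correlation across days was 0.38 for the same number, 0.39 for the other number of the same subset and -0.39 between the subsets. The negative value follows largely from the positive ones, as deviations from a day mean cancel within the day. The lowest correlation of same-numbered deviations was -0.12, and 16 of 36 arrays were most alike to their own number. With the replicate block on 36 arrays, 5 of 8 members passed in hypoxia, 7 in recovery (Dcn -0.36, Prelp -0.52) and 4 in the difference (Dcn -0.47). Of 12159 features, 6904 passed in hypoxia, 5126 in recovery and 2931 in the difference under that block. The member calls at single days and between days stayed at 24 and 3.

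Over all features the recovery count of 580 was 3198 scaled, 2475 with the random block and 5126 with the replicate block, 1103 in replicates 1 and 2, 1609 in replicates 3 and 4, and 0 to 13 without day 24, 28, 22 or 3. The 4 features called between phases became 1 to 2931. The counts of 5126 and 2931 came from the replicate block, with the array as the unit, and carry the limit given above. Without intensities, limits from signal over background could not be given.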
